A study of Mus musculus with 18 samples.

Results

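Bulk RNA-seq was compared between 4T1 mammary tumors of mice given the SHP2 inhibitor SHP099 alone (SHP2i, n = 4) and those of vehicle-treated mice (Vehicle, n = 5). These 9 tumors were taken by their treatment label from a series of 18, whose other tumors came from mice given the PI3K inhibitor CLR457 (PI3Ki, n = 4) or both inhibitors (Combo, n = 5). The question put to the comparison is what 14 days of SHP2 blockade do to the transcriptome of a whole tumor, in carcinoma cells and host cells together.

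SHP2, a tyrosine phosphatase encoded by Ptpn11, sits between receptor tyrosine kinases and RAS. It docks on phosphorylated receptors and on adaptors such as GRB2 and GAB1, and full activation of RAS and of the ERK kinases below it depends on its activity. The CSF1 receptor of macrophages and many cytokine receptors signal through it as well, so carcinoma cells and the leukocytes, fibroblasts and vessels of a tumor all carry the target. SHP099 is an allosteric inhibitor that holds the phosphatase in its closed, inactive form.

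In every group, 300000 cells of 4T1, a transplantable mouse model line for triple-negative breast cancer, had been placed orthotopically in female Balb/c mice aged 8 weeks, which have a working immune system. Dosing ran from day 7 to day 21 after that, with SHP099 at 100 mg/kg in SHP2i, and tumors were taken on day 21. All tumors therefore come from 1 carcinoma line in 1 inbred strain. The authors deposited whole-number counts of reads per gene, and totals ran from 21.16 M to 24.79 M per tumor in these 9 (median 23.05 M). Levels below are CPM, counts per M counts after TMM scaling, and stand in the order of replicates 1 to 5 for Vehicle and 2 to 5 for SHP2i. A difference is the log2 fold change of SHP2i minus Vehicle with its standard error (SE) after ±, from edgeR's quasi-likelihood test over all 18 tumors, and p is adjusted over the 15282 genes tested.

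Of the genes tested, 474 were lower in SHP2i at an adjusted p under 0.05 and a log2 fold change under -1 (3.1% of all), and 98 were higher past the mirrored limits (0.641%). At the adjusted p alone, 1000 were lower (6.54%) and 772 higher (5.05%). Changes by more than 4-fold were also mostly downward, with 153 lower genes past -2 on the log2 scale against 16 higher genes past 2, while the median over all tested genes was 0.02. In 10.5% of tested genes all SHP2i tumors lay below all Vehicle tumors, and in 8.6% they all lay above. Among the 474 lower genes this separation held for 444, and among the 98 higher genes for 79. With each of the 9 tumors left out in turn, 312 of the 474 and 48 of the 98 passed the adjusted p in all 9 fits. The lower genes have 85 members in the lists of pathways and cell types used below and 389 outside them.

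Ptpn11 itself read 168, 139.6, 158, 167 and 173 CPM in Vehicle and 192, 198, 195 and 194 CPM in SHP2i. All 4 SHP2i tumors lay just above the 5 Vehicle tumors, and the difference of 0.27 ± 0.09 did not pass the test (adjusted p = 0.0558). Its mRNA is no measure of the enzyme's activity, which is what SHP099 acts on. The defining markers of carcinoma epithelium were present throughout. The keratins Krt8 and Krt18 read from 405 to 643 CPM and from 268 to 441 CPM over the 9 tumors, and E-cadherin (Cdh1) from 9.58 to 24.1 CPM. None of Epcam, Krt8, Krt18, Krt14, Krt19 and Cdh1 passed the test (adjusted p from 0.376 to 0.986). SHP2i replicate 4 was low in Epcam, at 3.17 CPM against 22.4 to 25.7 in the other SHP2i tumors, and low in Krt19 and Krt14.

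One tumor of each group stood apart. On the first principal component of the 9 tumors, which held 69.3% of the variance of the 500 most variable genes, Vehicle replicate 1 scored -7.62, the other Vehicle tumors -25.46 to -22.16, and the SHP2i tumors 19.56 to 35.11. SHP2i replicate 4 took the low end of the second component (10.4% of variance) at -22.12, with the others from -8.87 to 9.36. Without Vehicle replicate 1 the counts were 459 lower and 87 higher genes, and without SHP2i replicate 4 they were 434 and 69.

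**Figure D1:**
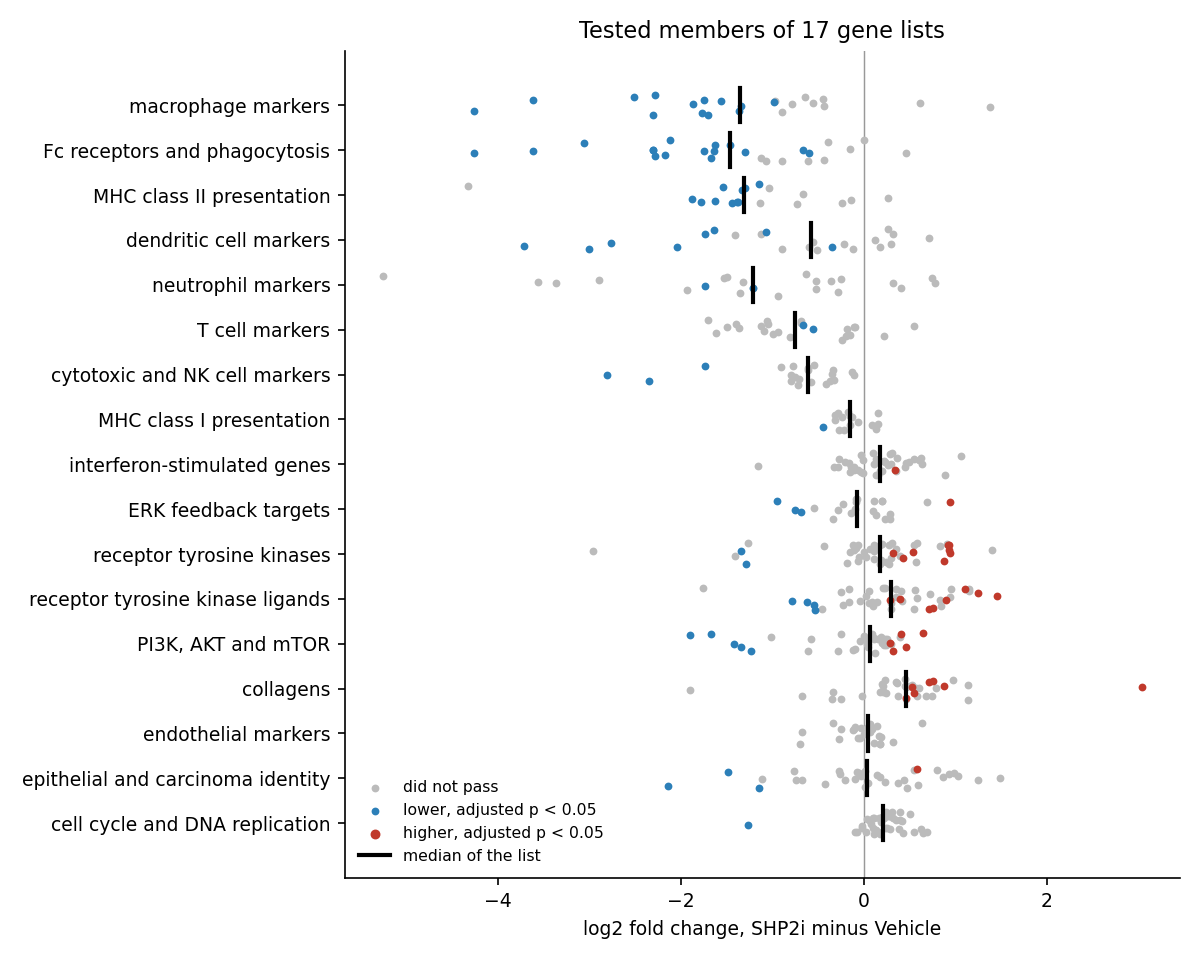
Each point is a tested member of a gene list, placed by its log2 fold change (SHP2i minus Vehicle); blue and red points passed an adjusted p of 0.05 as lower and higher, and black bars are list medians. The macrophage, Fc receptor and MHC class II lists have their medians at -1.36, -1.47 and -1.32, and the collagen list has its median at 0.46.

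Genes of myeloid cells, the family of monocytes, macrophages and dendritic cells, were widely lower in SHP2i. Macrophages take up dying cells and antibody-coated particles through scavenger, complement and Fc receptors and depend for survival on CSF1 and its receptor. Of 22 tested macrophage markers, 13 were lower and 0 higher (median -1.36), and of 25 genes for Fc receptors and phagocytosis, 16 were lower and 0 higher (median -1.47), beside 6.54% lower and a median of 0.02 over all tested genes. With each tumor left out in turn, 9 of the 13 and 13 of the 16 passed in all 9 fits. In bulk RNA a smaller number of such cells and less of the mRNA per cell cannot be told apart. The pan-leukocyte gene Ptprc (CD45) read 121, 173, 189.6, 251 and 204 CPM in Vehicle and 40.9, 27.2, 68.7 and 62.6 CPM in SHP2i, which is less in every SHP2i tumor than in any Vehicle tumor (-1.91 ± 0.54, adjusted p = 0.0302), with the call kept in 3 of the 9 fits.

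The C1q genes, which make the recognition part of complement in tissue macrophages, were all lower. C1qa read 464, 625, 589.5, 557 and 522 CPM in Vehicle and 145, 150.2, 224 and 228 CPM in SHP2i (-1.56 ± 0.32, adjusted p = 0.00455). C1qb read 346, 497, 469.7, 495 and 475 CPM in Vehicle and 88, 92.5, 162 and 156 CPM in SHP2i (-1.87 ± 0.35), and C1qc fell alike (-1.77 ± 0.32). In all 3 genes the lowest Vehicle tumor, replicate 1, stood above the highest SHP2i tumor. The high-affinity IgG receptor Fcgr1 read 68.8, 100.4, 80.2, 104 and 95 CPM in Vehicle and 16.4, 9.12, 24.8 and 22.3 CPM in SHP2i, and the scavenger receptor Msr1 197, 257, 239, 261 and 256 CPM in Vehicle and 41.6, 36.8, 64 and 56 CPM in SHP2i, again with no overlap between groups. Their differences were -2.30 ± 0.35 and -2.29 ± 0.40 (adjusted p = 0.000622 and 0.00168). Aif1, a cytoplasmic protein of macrophages, fell by 2.51 (adjusted p = 7.62e-05) and lysozyme (Lyz2) fell by 1.75 (adjusted p = 0.00506), and the fractalkine receptor Cx3cr1, at 182, 231, 235, 258 and 258 CPM in Vehicle and 110.2, 114, 122 and 124 CPM in SHP2i, fell by 0.99 with adjusted p = 1.05e-05.

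A pair of genes much used to define macrophages passed with larger p. Csf1r, the CSF1 receptor, read 231, 299.8, 322, 316 and 354 CPM in Vehicle and 77, 84, 185 and 134 CPM in SHP2i (-1.34 ± 0.37, adjusted p = 0.0267), and Adgre1, which encodes F4/80, read 63.7, 87.9, 106, 97.5 and 107 CPM in Vehicle and 20.6, 17.1, 44.4 and 30.8 CPM in SHP2i (-1.71 ± 0.49, adjusted p = 0.0312). Neither pair of groups overlapped, yet Csf1r kept its call in 4 of the 9 fits with a tumor left out and Adgre1 in 2. SHP2i replicates 4 and 5 were the higher ones in both. Cd68 (-0.64 ± 0.38, adjusted p = 0.281) and Apoe (-0.97 ± 0.33, adjusted p = 0.0656) did not pass. The mannose receptor Mrc1 read 192, 174, 206, 153 and 164 CPM in Vehicle and 139, 179, 491 and 276 CPM in SHP2i (adjusted p = 0.386). SHP2i replicate 4 carried the highest Mrc1 of the 9 tumors, and it also had the highest Arg1, at 366 CPM, and the highest Chil3, at 30.2 CPM. Chil3, a secreted chitinase-like protein of alternatively activated macrophages, read 1.71, 0.782, 1.22, 0.492 and 0.174 CPM in Vehicle and 1.37, 3.06, 30.2 and 7.66 CPM in SHP2i (3.60 ± 1.03, adjusted p = 0.0319), and the groups overlapped. It kept the call in 3 of the 9 fits and lost it without SHP2i replicate 4. Of the 22 genes of alternative activation and suppressive myeloid cells, 3 were higher and 2 lower, and the median was 0.27. Spp1, osteopontin, one of the lower genes, read 1858, 1966, 1759, 1567 and 1912 CPM in Vehicle and 1277, 986, 1196 and 1402 CPM in SHP2i (-0.58 ± 0.17, adjusted p = 0.0328) and kept its call in 2 of 9 fits.

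**Figure D2:**
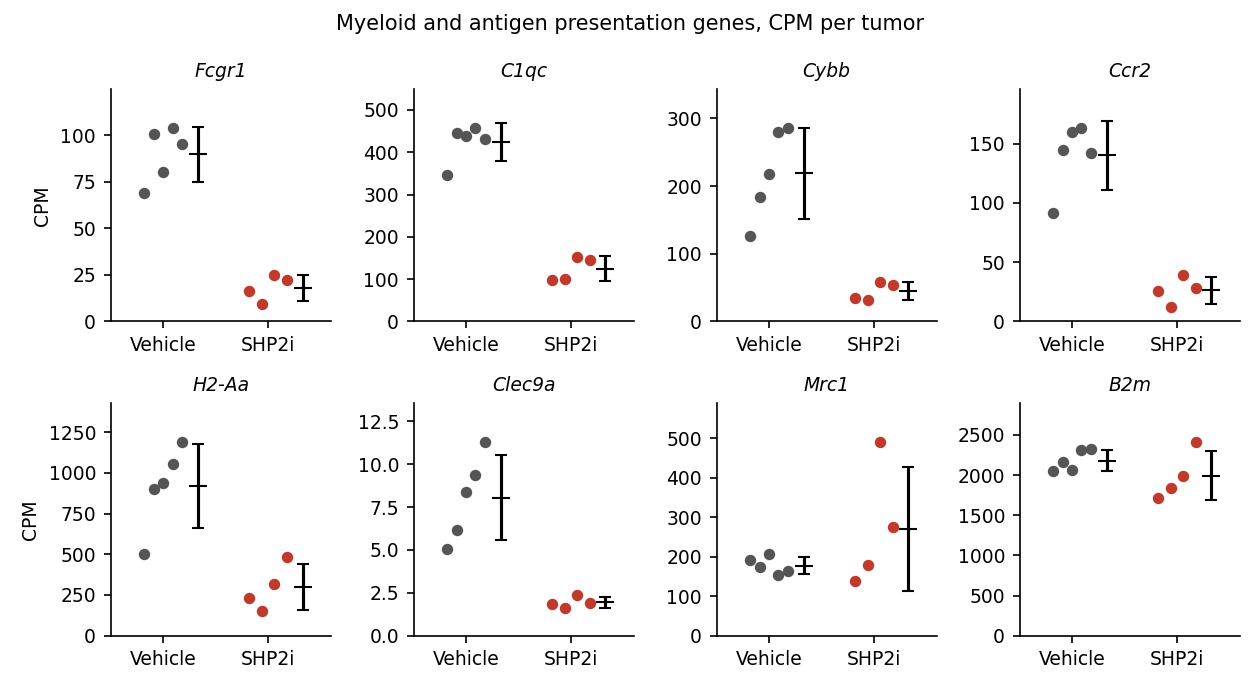
CPM in each tumor (points) with the mean and SD (bar) for Vehicle (gray, n = 5) and SHP2i (red, n = 4); each vertical axis starts at 0. The groups do not overlap for Fcgr1, C1qc, Cybb, Ccr2, H2-Aa and Clec9a, overlap for Mrc1 and B2m, and SHP2i replicate 4 has the highest Mrc1 at 491 CPM.

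The phagocyte NADPH oxidase makes superoxide in phagosomes, and its subunit genes Cybb, Cyba, Ncf1 and Ncf4 were lower. Its membrane subunit Cybb read 127, 184, 218, 279 and 286 CPM in Vehicle and 34.2, 31.7, 57.9 and 53.7 CPM in SHP2i (-2.30 ± 0.36, adjusted p = 0.000752). The partner subunit Cyba, which other cells also make, fell by 0.66 (adjusted p = 0.00923). The cytosolic subunits Ncf1 and Ncf4 changed by -1.30 and -1.67 (adjusted p = 0.0272 and 0.00584). Both were named after their values were seen, and Ncf1 kept its call in 4 of the 9 fits. The integrin Itgam (CD11b) read 131, 165, 199.9, 238 and 199.9 CPM in Vehicle and 36.8, 29.3, 54.6 and 51 CPM in SHP2i (-2.12 ± 0.35, adjusted p = 0.000973), and its partner chain Itgb2 fell by 0.60 with overlapping groups and the call kept in 2 of 9 fits. Activating Fc receptor Fcgr4 fell by 2.18 (adjusted p = 0.00113), and Fcrls, an Fc receptor-like gene, fell by 3.06 (adjusted p = 0.000823).

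Genes of blood-derived monocytes that passed were mostly lower. Of 17 tested monocyte markers, 5 were lower and 2 higher, and the 5 lower ones passed in all 9 fits with a tumor left out. The higher ones were Chil3, described above, and Hp, a plasma protein gene described below. Chil3 kept its call in 3 of the 9 fits. Ccr2, which guides monocytes from the blood into tissue, read 91.1, 145, 160, 163 and 142 CPM in Vehicle and 25.5, 11.8, 39.1 and 28.3 CPM in SHP2i (-2.42 ± 0.46, adjusted p = 0.00307). Treml4 read 5.68, 10.1, 13.4, 11.7 and 12.4 CPM in Vehicle and 0.563, 0.137, 0.666 and 0.224 CPM in SHP2i (-4.71 ± 0.45, adjusted p = 7.87e-06). The LPS co-receptor Cd14 fell by 0.75 (adjusted p = 0.00948). Ly6c2, the defining surface gene of inflammatory monocytes, read 23.6, 27.7, 19.9, 20.9 and 17.2 CPM in Vehicle and 8.97, 10.5, 19.7 and 15.8 CPM in SHP2i, with overlap between the groups and adjusted p = 0.308.

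Taking changed genes whose groups did not overlap and whose log2 CPM averaged more than 1, the 15 that fell most were Glycam1, Lilra5, Treml4, Dmp1, Siglece, Cr2, Kcnj10, Klrb1b, Slamf9, Timd4, Asb2, Dnase1l3, Tlr12, Ppfia4 and Klra2. Several encode receptors of myeloid cells. Lilra5, an activating leukocyte receptor, read 7.53, 12.8, 14, 11.1 and 14.5 CPM in Vehicle and 0.402, 0.547, 0.25 and 0.492 CPM in SHP2i (-4.81 ± 0.42, adjusted p = 3.9e-06). Siglece, a sialic acid-binding inhibitory receptor that itself signals through SHP2 and its relative SHP1, read 7.48, 11.5, 14.8, 21.2 and 17.5 CPM in Vehicle and 0.443, 0.776, 0.791 and 0.985 CPM in SHP2i (-4.27 ± 0.47, adjusted p = 3.18e-05). The phosphatidylserine receptor Timd4 fell by 3.62, the profilin-sensing toll-like receptor Tlr12 fell by 3.37 and the secreted nuclease Dnase1l3 fell by 3.45 (adjusted p = 0.00213, 8.17e-05 and 0.00208). The lectin-like receptors Klrb1b and Klra2 changed by -3.87 and -3.32 (adjusted p = 3.18e-05 and 3.18e-05), and Slamf9 fell by 3.81 (adjusted p = 3.68e-06). Dmp1, known as a matrix protein of bone and dentin, read 28.3, 46.2, 17.7, 16.7 and 50.3 CPM in Vehicle and 2.33, 0.411, 2.42 and 1.16 CPM in SHP2i (-4.31 ± 0.63, adjusted p = 0.000362), and the glial potassium channel gene Kcnj10 fell by 3.93. Of these genes 14 passed in all 9 fits with a tumor left out, and Glycam1 passed in 2. Treml4, Siglece, Slamf9, Asb2, Ppfia4 and Cr2 overlap another annotated gene, as do 204 of the 474 lower and 39 of the 98 higher genes, and the strand setting of the counting is not given in the sources used here. Other called genes named in the text that overlap another one are Csf1r, Adgre1, Cx3cr1, Cybb, Ncf1, Fcgr4, H2-DMa, Cd74, Clec9a, Siglech, Trem1, Il1b, Cxcl16, Il27, Il16, Dusp6, Epha4, Egfr, Ddr2, Ntrk2, Ror1, Hbegf, Rps6kb1, Sgk1, Pik3cd, Pik3ap1, Inpp5d, Sgk3, Lama3, Lamb3, Itgb4, Lama5, Col5a1, Notch3, C3, Ccnd2, Bmp4 and Tnnt3.

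MHC class II molecules show peptides to CD4+ T cells and are made by dendritic cells, macrophages and B cells. Of 18 tested genes for class II presentation, 10 were lower and 0 higher, with a median of -1.32. The 10 include the co-stimulatory genes Cd86 and Cd40. H2-Aa, the alpha chain of I-A, read 502, 903, 939.6, 1052 and 1190 CPM in Vehicle and 233, 154, 316 and 484 CPM in SHP2i (-1.63 ± 0.38, adjusted p = 0.0113). H2-Eb1, the beta chain of I-E, read 468, 879, 894, 953 and 1082 CPM in Vehicle and 204, 125, 259.6 and 406 CPM in SHP2i (-1.78 ± 0.38, adjusted p = 0.00628). H2-Ab1, the beta chain of I-A, read 459, 845, 853, 929 and 1018 CPM in Vehicle and 216, 140.1, 298 and 472 CPM in SHP2i, where SHP2i replicate 5 passed Vehicle replicate 1 (-1.54 ± 0.39, adjusted p = 0.0174). The invariant chain Cd74 read 1307, 2108, 2190, 2570 and 2858 CPM in Vehicle and 595, 439.6, 908 and 1315 CPM in SHP2i, where SHP2i replicate 5 did so too (-1.44 ± 0.36, adjusted p = 0.0152). The peptide-loading chains H2-DMa, H2-DMb1 and H2-DMb2 changed by -1.39, -1.30 and -1.38 (adjusted p = 0.0121, 0.0458 and 0.0193). In each of these genes Vehicle replicate 1 was the lowest Vehicle tumor and SHP2i replicate 3 the lowest SHP2i tumor. Of the 10 lower members, 5 passed in all 9 fits with a tumor left out, H2-Aa, H2-Eb1, H2-Eb2, H2-DMa and Cd40. H2-DMb1 passed in 2 of the 9. Ciita, the coactivator that switches on class II promoters, read 26.6, 42.5, 46.7, 72.1 and 76.8 CPM in Vehicle and 20.9, 15, 24.6 and 35.8 CPM in SHP2i, and its difference of -1.14 ± 0.40 did not pass (adjusted p = 0.0714). H2-DMb1, H2-DMb2 and Ciita were named after their values were seen. Balb/c mice carry other H2 alleles than the reference strain the reads were aligned to, and whether reads were lost for that reason was not tested.

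Of the co-stimulatory genes Cd80, Cd86 and Cd40, which act beside class II, Cd86 and Cd40 were lower and Cd80 did not pass (-0.67, adjusted p = 0.173). Both lower genes were already counted above in the class II list. Cd86 read 17.3, 24.9, 22, 23.2 and 24.9 CPM in Vehicle and 8.81, 5.93, 10.8 and 10.2 CPM in SHP2i (-1.33 ± 0.33, adjusted p = 0.0147) and Cd40 read 14.3, 17.6, 16.3, 17.1 and 18 CPM in Vehicle and 7.93, 6.11, 6.91 and 9.09 CPM in SHP2i (-1.15 ± 0.21, adjusted p = 0.00241), both without overlap. Class I molecules are carried by nearly all cells. Of 17 class I genes 1 was lower and 0 higher, H2-M3 (-0.45 ± 0.12, adjusted p = 0.0242), and the median was -0.15. B2m, the shared light chain, read 2047, 2167, 2057, 2313 and 2320 CPM in Vehicle and 1719, 1845, 1994 and 2412 CPM in SHP2i (adjusted p = 0.468), and H2-K1 differed by -0.15 ± 0.10 (adjusted p = 0.345). Of 41 interferon-stimulated genes, 1 was higher and 0 lower, and the median was 0.17.

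Class II promoters carry a conserved set of boxes, and the one nearest to the start, the Y box, holds the letters ATTGG. Read on the other strand this is the CCAAT box, which the factor NF-Y binds. RefSeq promoter windows of GRCm38.p6, from 250 bases before to 50 after a start, matched 12029 of the tested genes (78.7%). Of the 10 lower members of the class II list, co-stimulatory genes included, 6 matched. All 6 hold ATTGG on one strand or the other, beside 42.4% of tested genes with a window and 37.4% of all windows. Of the 12 tested class II members with a window, lower or not, 10 hold it (83.3%). The 150 bases before the start are printed for 5 of them, 5′ to 3′ along the gene, with the matches in capitals, to show where the shared letters lie in genes that fell together. They come from the reference strain and not from Balb/c. A match is a stretch of letters and not a measured site.
H2-Aa (chr17:34287824-34287973, minus strand): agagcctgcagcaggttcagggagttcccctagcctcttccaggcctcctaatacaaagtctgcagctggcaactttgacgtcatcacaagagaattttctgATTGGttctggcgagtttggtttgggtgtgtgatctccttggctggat
H2-Eb1 (chr17:34305717-34305866, plus strand): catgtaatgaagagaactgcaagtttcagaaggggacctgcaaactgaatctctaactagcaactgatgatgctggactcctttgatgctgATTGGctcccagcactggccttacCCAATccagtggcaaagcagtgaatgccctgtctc
H2-Eb2 (chr17:34325525-34325674, plus strand): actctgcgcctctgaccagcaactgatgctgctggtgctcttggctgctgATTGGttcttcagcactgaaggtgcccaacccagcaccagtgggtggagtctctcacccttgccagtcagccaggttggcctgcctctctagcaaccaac
H2-DMb1 (chr17:34153041-34153190, plus strand): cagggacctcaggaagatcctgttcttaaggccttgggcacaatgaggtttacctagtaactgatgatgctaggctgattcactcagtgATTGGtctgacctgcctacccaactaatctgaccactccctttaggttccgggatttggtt
H2-DMb2 (chr17:34145099-34145248, plus strand): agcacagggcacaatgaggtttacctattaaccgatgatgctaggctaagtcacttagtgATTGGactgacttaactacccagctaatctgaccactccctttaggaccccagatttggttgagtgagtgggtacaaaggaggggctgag
Counted to the first base of the match, ATTGG begins 48 bases before the start in H2-Aa, 59 in H2-Eb1, 100 in H2-Eb2, 61 in H2-DMb1 and 90 in H2-DMb2, and H2-Eb1 holds CCAAT as well, at 35. The stretches of H2-Eb2 and H2-DMb2 lie within the annotated spans of these genes, which begin at 34325503 and 34143229. H2-DMb1 and H2-DMb2 are near copies of each other, so that part of their reads may be split between them.

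Genes of macrophages often carry a binding element of PU.1, an ETS factor that myeloid cells need, and AGGAAGT is 1 form of its core. Searched on both strands (as ACTTCCT on the other one), it occurs in the windows of 10.9% of tested genes and 9.35% of all windows. Of the 13 lower macrophage markers, 8 had a window and 4 of these hold it. Of the 16 lower genes for Fc receptors and phagocytosis, 11 had a window and 3 hold it. Among all tested members with a window, lower or not, 5 of 15 macrophage markers and 3 of 20 Fc receptor and phagocytosis genes hold it. These lists share members, among them Fcgr1. The 150 bases before the start are shown for Fcgr1, C1qb and Slamf9, which are among the lower genes that hold it there. Slamf9, one of the 15 genes that fell most, is in neither list. Its stretch lies within the annotated span of the gene (chr1:172458569-172478421).
Fcgr1 (chr3:96293970-96294119, minus strand): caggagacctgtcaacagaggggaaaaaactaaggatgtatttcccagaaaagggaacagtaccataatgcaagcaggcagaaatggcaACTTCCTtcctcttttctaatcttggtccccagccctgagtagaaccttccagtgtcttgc
C1qb (chr4:136886201-136886350, minus strand): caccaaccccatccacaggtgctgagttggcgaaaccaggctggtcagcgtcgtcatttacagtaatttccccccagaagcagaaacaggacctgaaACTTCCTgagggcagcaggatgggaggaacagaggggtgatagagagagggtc
Slamf9 (chr1:172475210-172475359, plus strand): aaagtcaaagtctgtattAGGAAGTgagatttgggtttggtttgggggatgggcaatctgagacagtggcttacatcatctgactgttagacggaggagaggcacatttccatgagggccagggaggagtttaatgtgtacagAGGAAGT
The match begins 61 bases before the start in Fcgr1, 53 in C1qb, and 132 and 7 in Slamf9. In Fcgr1 and C1qb it lies on the other strand.

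Dendritic cells take antigen to lymph nodes and start T cell responses. Of 22 tested dendritic cell markers, 8 were lower and 0 higher (median -0.58), and 6 of the 8 passed in all 9 fits with a tumor left out. Markers of the cross-presenting subset were among them. Clec9a, its receptor for dead cells, read 5.08, 6.18, 8.37, 9.35 and 11.3 CPM in Vehicle and 1.85, 1.64, 2.37 and 1.93 CPM in SHP2i (-2.04 ± 0.26, adjusted p = 8.78e-05), and the chemokine receptor Xcr1 read 2.31, 3.17, 4.4, 6.61 and 7.28 CPM in Vehicle and 0.563, 0.411, 1.0 and 0.806 CPM in SHP2i (-2.76 ± 0.51, adjusted p = 0.00228). Siglech, a marker of plasmacytoid dendritic cells, fell by 3.01 (adjusted p = 0.00117), the acid amidase gene Naaa fell by 1.64 (adjusted p = 0.000755), and Irf8, a transcription factor of both subsets, fell by 1.07 (adjusted p = 0.00847). No SHP2i tumor reached a Vehicle tumor in any of these 5 genes. Other defining genes did not pass, as Flt3 (-1.41 ± 0.53, adjusted p = 0.0918), Cd209a (-0.90 ± 0.49, adjusted p = 0.23) and Zbtb46 (0.32 ± 0.12, adjusted p = 0.0965), which read higher in SHP2i.

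For other leukocytes the levels pointed down but few genes passed. Of 24 T cell markers 2 were lower and 0 higher (median -0.75), and the CD3 chains Cd3e, Cd3d and Cd3g differed by -1.40 ± 0.62, -1.70 ± 0.65 and -1.04 ± 0.45 (adjusted p = 0.143, 0.0964 and 0.137). Of 21 genes typical of cytotoxic lymphocytes including NK cells, 3 were lower (median -0.62). The NK receptor Klrb1c read 4.16, 5.05, 5.1, 7.59 and 6.33 CPM in Vehicle and 0.925, 0.456, 0.875 and 0.94 CPM in SHP2i (-2.81 ± 0.36, adjusted p = 0.000137), and the activating receptor Klrk1 fell by 2.35 (adjusted p = 0.000223), while Ncr1, which defines NK cells, did not pass (-0.80 ± 0.52, adjusted p = 0.318). Of 23 neutrophil markers, 2 were lower and 0 higher (median -1.21), Trem1 (-1.73 ± 0.37, adjusted p = 0.00628) and Il1b (-1.21 ± 0.33, adjusted p = 0.0251, kept in 5 of 9 fits). The calgranulins S100a8 and S100a9, cytosolic proteins of neutrophils, did not overlap between groups but varied widely within them, with S100a8 at 34.6, 45.9, 70.1, 31.6 and 26.4 CPM in Vehicle and 12, 10.3, 18.8 and 17.9 CPM in SHP2i (adjusted p = 0.194) and S100a9 at adjusted p = 0.219.

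B cell and lymph node genes were low in all 4 SHP2i tumors, beside each of the leukocyte results above. The mean log2 CPM of 17 tested B and plasma cell markers, relative to the Vehicle mean, was from -2.69 to -2.52 in the SHP2i tumors and from -1.08 in Vehicle replicate 1 to 0.57 in replicate 4. Of the 17, 17 read lower and 4 passed (median -2.62). Glycam1, a mucin of the high endothelial venules of lymph nodes and not of B cells, is among the 17 and among those that passed. It therefore enters the level above and the covariate below. Glycam1 read 1.38, 54.3, 32, 72.9 and 41.7 CPM in Vehicle and 0.121, 0, 0 and 0 CPM in SHP2i. Cr2, the complement receptor of mature B cells and follicular dendritic cells, read 1.99, 11, 8.24, 13.8 and 8.46 CPM in Vehicle and 0.563, 0.411, 0.50 and 0.403 CPM in SHP2i (-4.20 ± 1.01, adjusted p = 0.0131). Cd79a, Cd79b and Ms4a1, which define B cells, were at 0.167 to 1.17 CPM in SHP2i and at 2.68 to 23.6 CPM in Vehicle and did not pass (adjusted p from 0.0697 to 0.0865). A fit with the B and plasma cell level as a covariate left 207 lower and 44 higher genes, of which 202 and 33 are among the 474 and 98. In that fit 9 of the 13 lower macrophage markers and 9 of the 16 Fc receptor and phagocytosis genes passed. So did 2 of the 10 genes of the class II list, H2-Eb1 and the co-stimulatory Cd40, and 4 of the 8 dendritic cell markers. The median log2 fold changes of these genes stayed close to their values without the covariate, at -1.77 for the 13 macrophage markers (-1.77 without), -1.73 for the 16 (-1.93), -1.52 for the 10 class II genes (-1.41) and -1.76 for the 8 dendritic cell markers (-1.89), while their median standard errors rose, for the class II genes from 0.37 to 0.45. Medians of lower genes in some other lists moved more. That of the 5 in the PI3K, AKT and mTOR list went from -1.42 to -1.0. For the 2 in the list of D cyclins, CDK inhibitors and Myc it went from -1.53 to -0.91. For the 4 B and plasma cell markers it went from -2.87 to -1.38. C1qa, Fcgr1 and Aif1 read -1.56, -2.38 and -2.54 in that fit and passed, H2-Aa read -1.55 (adjusted p = 0.0742), and Ptprc moved to -0.85 (adjusted p = 0.312). No SHP2i tumor had a B cell level near that of a Vehicle tumor, so in these 9 tumors that level and SHP099 cannot be told apart. Over the 18 tumors of the fit the level also varied within groups, from -3.43 to 1.28 in PI3Ki and from -3.57 to 1.17 in Combo. The slope of the covariate thus draws on tumors given CLR457 as well.

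Skeletal muscle transcripts also varied. The 20 tested muscle genes summed to 157.4 CPM in Vehicle replicate 3, 35.4 to 48.2 CPM in the other Vehicle tumors and 32.99 to 35.52 CPM in SHP2i. Acta1 and Ckm, which define muscle fibers, read 26.6 and 10.3 CPM in Vehicle replicate 3 and under 1 CPM in all SHP2i tumors. Tnni2 and Tnnt3 passed as lower (adjusted p = 0.0139 and 0.0333), and Tnnt3 kept its call in 4 of 9 fits. Without Vehicle replicate 3, 400 genes were lower and 71 higher.

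**Figure D3:**
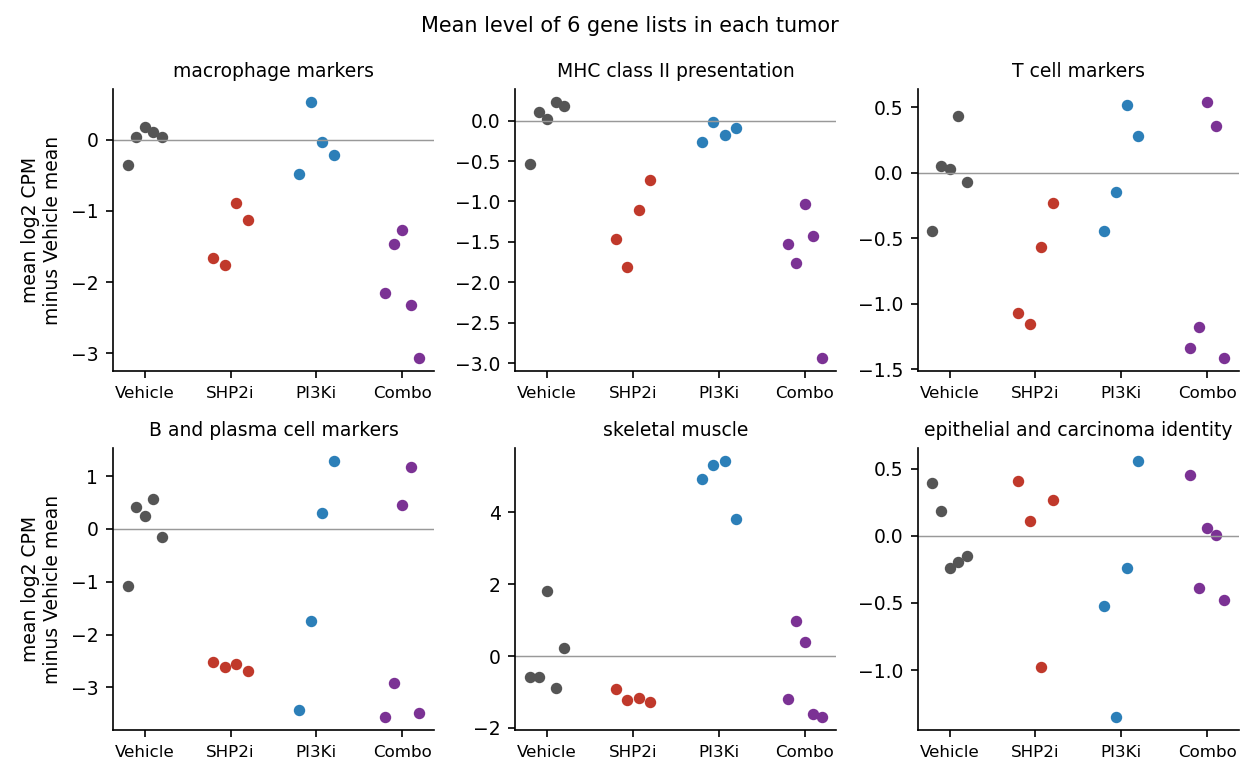
Mean log2 CPM of the tested members of 6 lists in each of the 18 tumors, relative to the Vehicle mean (gray line at 0). SHP2i (red) and Combo (purple) tumors lie below Vehicle (gray) and PI3Ki (blue) in macrophage and MHC class II genes, while B and plasma cell genes are low in all 4 SHP2i tumors, in 3 of 5 Combo and in 2 of 4 PI3Ki tumors.

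The monocyte chemokine receptors Ccr1 and Ccr2 were lower, and most of the chemokines themselves did not pass. Of 28 CC and C chemokine and receptor genes, 6 were lower and 0 higher (median -0.10), and 2 of the 6 passed in all 9 fits. Ccr1 read 77, 101, 93.4, 86.7 and 83.6 CPM in Vehicle and 20.8, 19.3, 43.6 and 32.1 CPM in SHP2i (-1.61 ± 0.36, adjusted p = 0.00768), and Ccl12, a monocyte attractant, fell by 1.59 (adjusted p = 0.0374, kept in 2 of 9 fits). Cxcl16, which draws CXCR6+ T cells, read 160.2, 189, 194, 200 and 207 CPM in Vehicle and 73.4, 74.1, 104 and 98.1 CPM in SHP2i (-1.12 ± 0.19, adjusted p = 0.00122). Of 30 genes for interleukins, colony stimulating factors and the TNF family, 5 were lower. Tnf read 2.35, 3.6, 2.79, 3.24 and 4.01 CPM in Vehicle and 0.483, 0.456, 1.25 and 0.94 CPM in SHP2i (-2.02 ± 0.40, adjusted p = 0.00364), Il27 fell by 1.91 and Il16 fell by 1.47 (adjusted p = 0.00113 and 0.0156). Tgfb1 varied little within groups, with 160.3, 158, 159, 165 and 169 CPM in Vehicle and 91, 111, 108 and 101 CPM in SHP2i and a difference of -0.66 (adjusted p = 3.08e-05). Csf1, the growth factor of macrophages, read 253, 267, 253, 314 and 288 CPM in Vehicle and 372, 295, 325 and 364 CPM in SHP2i and did not pass (0.30 ± 0.13, adjusted p = 0.122).

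Transcripts that ERK signaling induces were next examined, since SHP2 acts upstream of ERK. ERK feedback genes encode phosphatases and adaptors that damp the pathway and ETS factors that carry its output. Of 22 tested members 3 were lower and 1 higher (median -0.08, beside 0.02 over all genes). Dusp6, the cytoplasmic phosphatase of ERK and a common transcriptional readout of it, read 276, 290.4, 283, 279 and 259 CPM in Vehicle and 161, 176, 149 and 204 CPM in SHP2i (-0.69 ± 0.13, adjusted p = 0.00241). Etv5, an ETS factor, read 50.5, 59.4, 63.6, 69.3 and 76.7 CPM in Vehicle and 29.6, 35.4, 33.2 and 34.4 CPM in SHP2i (-0.95 ± 0.13, adjusted p = 0.000294). Both separated the groups in full and passed in all 9 fits with a tumor left out. The nuclear ERK phosphatase gene Dusp5 read 19.7, 16.8, 16.4, 14.2 and 14.7 CPM in Vehicle and 8.49, 7.3, 12 and 11.2 CPM in SHP2i (-0.75 ± 0.21, adjusted p = 0.03) and kept its call in 4 of the 9. Dusp4, Spry2, Spry4 and Etv4, named after their values were seen, did not pass, with differences of 0.14 ± 0.16, -0.08 ± 0.13, -0.14 ± 0.17 and -0.09 ± 0.10 (adjusted p from 0.547 to 0.702). Spry2 read 39.9, 39.9, 48.5, 39.8 and 47.2 CPM in Vehicle and 36.6, 46.1, 35.4 and 44.5 CPM in SHP2i, so that the tumors of both groups were interleaved. Epha4, an ephrin receptor in the same list, read from 0.90 to 2.69 CPM over the 9 tumors and was higher (0.94 ± 0.26, adjusted p = 0.027, kept in 3 of 9 fits).

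Of 19 immediate early and heat shock genes, 2 were lower and 0 higher (median -0.27). Ier2 read 56.7, 61.2, 52.2, 45.5 and 46.3 CPM in Vehicle and 34.4, 36.6, 27.4 and 35.3 CPM in SHP2i (-0.65 ± 0.13, adjusted p = 0.00408), and Egr3 fell by 1.34 (adjusted p = 0.037, kept in 1 of 9 fits). Ccnd1, the D cyclin that growth factors induce in epithelium, read 876, 852, 778, 1050 and 959.8 CPM in Vehicle and 1035, 963, 991 and 909.6 CPM in SHP2i and differed by 0.11 ± 0.13 (adjusted p = 0.598). Myc read 171, 168, 145, 153 and 150.4 CPM in Vehicle and 127, 131, 119.5 and 142 CPM in SHP2i, below every Vehicle tumor in all 4 SHP2i tumors, and its difference of -0.28 ± 0.10 did not pass (adjusted p = 0.0792).

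Of 28 tested genes for SHP2, its adaptors and RAS activation, 2 were lower and 2 higher, and the median was 0.05. Ptpn6, which encodes SHP1, the relative of SHP2 in blood cells, read 92.4, 132, 122, 143 and 125 CPM in Vehicle and 43.2, 41.4, 59.1 and 54.2 CPM in SHP2i (-1.31 ± 0.15, adjusted p = 5.21e-05). The adaptor Grb2 read 131, 143, 144, 139.7 and 137 CPM in Vehicle and 104, 107, 117 and 111 CPM in SHP2i (-0.34 ± 0.07, adjusted p = 0.00573). The RAS exchange factor Sos1 read 37.1, 36.2, 41.7, 44.2 and 44.8 CPM in Vehicle and 54.2, 52.7, 54.6 and 51.7 CPM in SHP2i (0.39 ± 0.11, adjusted p = 0.032), and the kinase Braf differed by 0.44 ± 0.11 (adjusted p = 0.0149). No SHP2i tumor lay within the Vehicle range for Grb2, Sos1 or Braf. Sos1 kept its call in 2 and Braf in 6 of the 9 fits, and both overlap other genes. The adaptor Shc1 read 179, 186, 188, 193 and 184 CPM in Vehicle and 169, 187, 179 and 208 CPM in SHP2i, with adjusted p = 0.995.

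**Figure D4:**
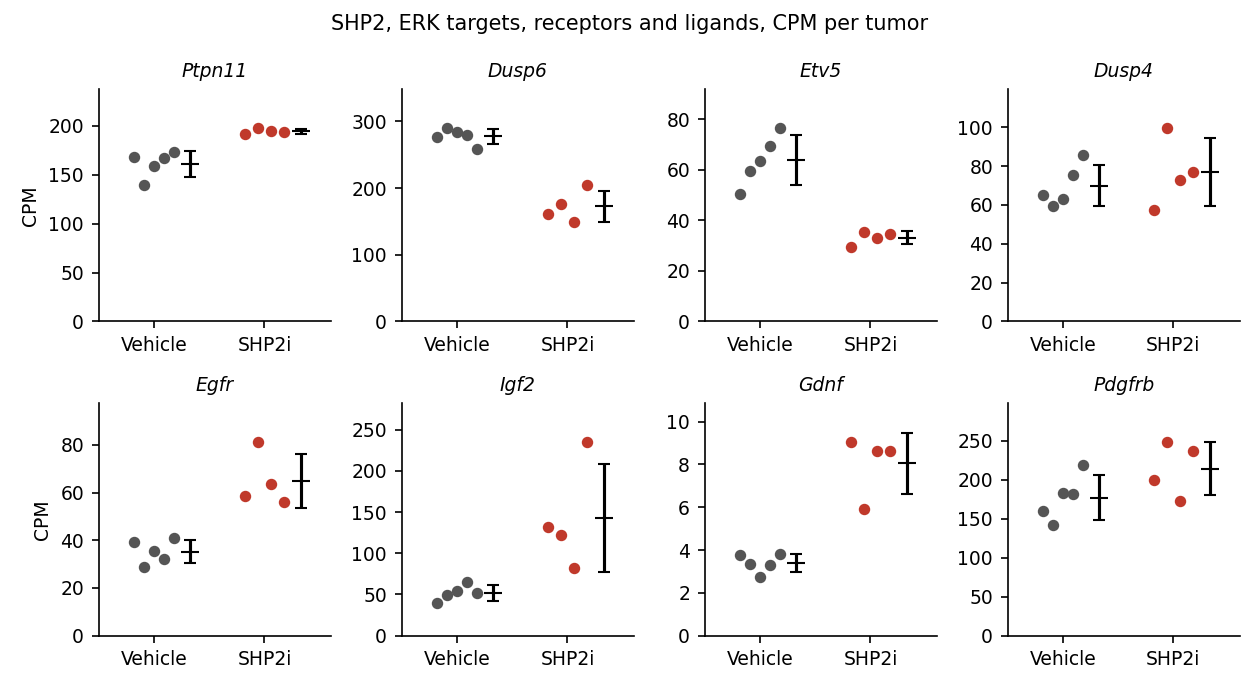
CPM in each tumor (points) with mean and SD (bar) for Vehicle (gray, n = 5) and SHP2i (red, n = 4); axes start at 0. Dusp6 and Etv5 are lower and Egfr, Igf2 and Gdnf higher in all 4 SHP2i tumors, while Dusp4 and Pdgfrb overlap between groups.

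Receptor tyrosine kinases and their ligands had more higher than lower members. Of 46 tested receptors, 8 were higher and 2 lower (median 0.18), and of 43 ligands, 8 were higher and 4 lower (median 0.30), beside 5.05% higher and 6.54% lower over all genes. With each tumor left out in turn, 2 of the 8 receptors and 2 of the 8 ligands passed in all 9 fits, and with the B cell covariate 1 and 0 of them passed. The median log2 fold change of the 8 higher receptors was 0.90 without and 0.79 with the covariate, and that of the 8 ligands 0.83 and 0.73.

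Egfr, the receptor for EGF and TGF-alpha, read 39.1, 28.7, 35.7, 32 and 40.7 CPM in Vehicle and 58.5, 81.2, 63.6 and 55.8 CPM in SHP2i (0.88 ± 0.14, adjusted p = 0.000701), and it is the receptor that also passed with the covariate. Ddr2, a collagen receptor kinase of mesenchymal cells, read 183, 166, 187, 219.7 and 215 CPM in Vehicle and 279.5, 272, 304 and 272 CPM in SHP2i (0.54 ± 0.13, adjusted p = 0.0121). In both genes all SHP2i tumors lay above all Vehicle tumors. Ryk differed by 0.32 ± 0.09, Ntrk2 by 0.93 ± 0.26, Ror1 by 0.92 ± 0.27 and Tyro3 by 0.43 ± 0.13 (adjusted p = 0.0254, 0.0291, 0.0353 and 0.0399), and kept their calls in 5, 1, 2 and 1 of the 9 fits. The last 3 were named after their values were seen. Beside Csf1r, the lower receptor was Ephb6, a kinase-dead ephrin receptor, at 8.96, 13.1, 8.94, 8.9 and 13.4 CPM in Vehicle and 6.36, 3.19, 4.46 and 3.45 CPM in SHP2i (-1.29 ± 0.29, adjusted p = 0.00797).

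The PDGF receptors are of interest because the study followed PDGFRB phosphorylation under SHP2i. Pdgfrb, the receptor of pericytes and fibroblasts, read 160.2, 142, 183, 182 and 219 CPM in Vehicle and 200.5, 249, 173 and 236 CPM in SHP2i (0.28 ± 0.20, adjusted p = 0.374). Pdgfra read 169, 146, 237, 201 and 236 CPM in Vehicle and 209, 320, 314 and 340.5 CPM in SHP2i (0.58 ± 0.22, adjusted p = 0.0864). The ligands Pdgfa, Pdgfb, Pdgfc and Pdgfd differed by 0.29 ± 0.15, 0.06 ± 0.11, 0.23 ± 0.13 and 0.35 ± 0.25 (adjusted p from 0.207 to 0.758). Groups overlapped in all 6 genes. Of other kinases on the study's receptor arrays, Axl differed by 0.01 ± 0.12 and Insr by 0.11 ± 0.12 (adjusted p = 0.982 and 0.556), while Epha7, under 1 CPM in every tumor, differed by 1.40 ± 0.59 (adjusted p = 0.124).

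Among ligands, Igf2, a growth factor for the IGF1 and insulin receptors, rose most. It read 39.4, 49.8, 54.1, 65.4 and 51.3 CPM in Vehicle and 132, 122, 81.6 and 235 CPM in SHP2i (1.46 ± 0.30, adjusted p = 0.0046), with SHP2i replicate 5 the highest. The antisense gene Igf2os overlaps it and rose by 1.80 ± 0.29 (adjusted p = 0.000834), and their reads may be shared. Gdnf, the ligand of RET, read 3.79, 3.36, 2.75, 3.28 and 3.79 CPM in Vehicle and 9.05, 5.93, 8.62 and 8.64 CPM in SHP2i (1.25 ± 0.26, adjusted p = 0.00506). Vegfa, which drives vessel growth, read 148, 93.3, 95, 90.5 and 94 CPM in Vehicle and 181, 149, 265 and 180.1 CPM in SHP2i (0.90 ± 0.26, adjusted p = 0.0353, kept in 2 of 9 fits), and the KIT ligand Kitl differed by 0.71 ± 0.20 (adjusted p = 0.0289, kept in 4). A pair of EGF receptor ligands were lower. Tgfa read 20.3, 16.2, 15.2, 18.3 and 23.2 CPM in Vehicle and 11.6, 12.1, 13.2 and 11.3 CPM in SHP2i (-0.62 ± 0.16, adjusted p = 0.0193), and Hbegf fell by 0.54 (adjusted p = 0.0205), so that the receptor was higher and 2 of its ligands lower in the same tumors. Bdnf and Efnb1 changed by -0.79 and -0.54 (adjusted p = 0.0188 and 0.0154).

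Genes of the PI3K, AKT and mTOR pathway moved in both directions. Of 36 tested members, 5 were lower and 5 higher (median 0.06). The lower ones include PI3K genes that leukocytes use: the gamma catalytic subunit Pik3cg at 15.9, 23.5, 24.6, 30.6 and 27.9 CPM in Vehicle and 5.55, 6.48, 8.66 and 10.1 CPM in SHP2i (-1.67 ± 0.40, adjusted p = 0.013), the delta subunit Pik3cd (-1.35 ± 0.36, adjusted p = 0.0239), the B cell adaptor Pik3ap1 (-1.90 ± 0.44, adjusted p = 0.0103) and the phosphatase Inpp5d (-1.24 ± 0.32, adjusted p = 0.0197). Sgk3 was lower as well (-1.42 ± 0.26, adjusted p = 0.00236). The higher ones, with smaller changes, include Ddit4, an mTORC1 inhibitor (0.65 ± 0.15, adjusted p = 0.0106), Sgk1 (0.46 ± 0.08, adjusted p = 0.00159), the regulatory subunit Pik3r1 (0.41 ± 0.13, adjusted p = 0.0437), and the S6 kinase Rps6kb1 (0.28 ± 0.07, adjusted p = 0.0134). Sgk1 read 112, 105, 98.4, 98 and 100.2 CPM in Vehicle and 122, 134, 158 and 152 CPM in SHP2i, without overlap, and passed in all 9 fits, whereas Pik3r1 kept its call in 2. Pik3ca read 69.6, 59.3, 68.3, 68.9 and 75.4 CPM in Vehicle and 66.3, 73.2, 68.7 and 71.8 CPM in SHP2i (adjusted p = 0.809). Pik3cd, Inpp5d and Pik3r1 were named after their values were seen. With the B cell covariate 1 of the 5 lower genes passed, Sgk3 (-1.118, adjusted p = 0.0432). Pik3cg, Pik3cd, Pik3ap1 and Inpp5d read -1.002, -0.708, -1.476 and -0.789 in that fit and did not pass (adjusted p from 0.118 to 0.25). Of the 5 higher genes 1 passed there, Sgk1 (0.388, adjusted p = 0.0324).

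Extracellular matrix genes had calls in both directions. Laminin-332 is the laminin of epithelial basement membranes, with chains encoded by genes that include Lama3 and Lamb3, and hemidesmosomes bind it through the integrin chain Itgb4. Lama3 and Lamb3 were lower. Lamb3 read 19.2, 8.1, 6.37, 5.83 and 15.3 CPM in Vehicle and 3.3, 2.05, 1.46 and 3.13 CPM in SHP2i (-2.14 ± 0.53, adjusted p = 0.0152) and Lama3 fell by 1.15 (adjusted p = 0.0489). Vehicle replicates 1 and 5 were the highest for both. Itgb4 fell by 0.76 (adjusted p = 0.0478). Lama5, the alpha chain of laminins of vessels and other epithelia, was higher at 534, 346, 525, 515 and 781 CPM in Vehicle and 745, 907, 1086 and 939 CPM in SHP2i (0.77 ± 0.21, adjusted p = 0.0244). Lamb3 passed in 8 of the 9 fits with a tumor left out, Lama5 in 3, and Lama3 and Itgb4 in 1 each. Itgb4 and Lama5 were named after their values were seen.

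Of 38 collagen genes, 7 were higher and 0 lower (median 0.46), and 0 of the 7 passed in all 9 fits. Col6a1 and Col6a2, chains of collagen VI around cells, rose by 0.55 ± 0.16 and 0.71 ± 0.19 (adjusted p = 0.036 and 0.0241), Col5a1 by 0.53 ± 0.15 and Col4a5 of basement membranes by 0.75 ± 0.23 (adjusted p = 0.0332 and 0.0422). Col6a2 read 341, 288, 318, 297 and 282 CPM in Vehicle and 328, 567, 632 and 472 CPM in SHP2i, with SHP2i replicate 2 within the Vehicle range and replicate 4 the highest. The collagen count was 7 in the full fit, 0 without SHP2i replicate 4, 0 without SHP2i replicate 5 and 0 without Vehicle replicate 2. Markers of the cells that lay down matrix had few calls. Of 25 fibroblast markers 1 was higher, the WNT antagonist Sfrp1, at 146, 125, 131, 151 and 134 CPM in Vehicle and 261, 297, 319 and 327 CPM in SHP2i (1.13 ± 0.16, adjusted p = 0.000248). Of 17 pericyte and smooth muscle markers 2 were higher, smooth muscle myosin Myh11 (1.15 ± 0.31, adjusted p = 0.0226) and Notch3 (1.14 ± 0.25, adjusted p = 0.00721). Of 25 endothelial markers 0 passed in edgeR's test, 2 at an unadjusted p under 0.05 and 1 in DESeq2, and their median was 0.04.

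Several genes for plasma proteins that the liver also makes were higher. Haptoglobin (Hp), which binds free hemoglobin, read 422, 314, 309.8, 243 and 232 CPM in Vehicle and 742, 1006, 858 and 865 CPM in SHP2i (1.51 ± 0.30, adjusted p = 0.0044). C3, the hub of the complement cascade, read 317, 231, 281, 325 and 250.3 CPM in Vehicle and 419, 683, 1378 and 1036 CPM in SHP2i (1.65 ± 0.37, adjusted p = 0.00825). The protease genes C1s1 and C1ra rose by 0.78 ± 0.18 and 0.65 ± 0.16 (adjusted p = 0.0119 and 0.0149), and the protease inhibitor Serpina3n by 1.32 ± 0.39 (adjusted p = 0.0382, kept in 1 of 9 fits). These 3 were named after their values were seen. Of 22 complement genes 5 were higher and 5 lower. The C1q trio is among the lower ones and the proteases that it carries are among the higher ones, and C6, of the terminal complex, read 22.2, 26, 33.4, 29.2 and 34.6 CPM in Vehicle and 4.67, 3.74, 10.2 and 8.95 CPM in SHP2i (-2.08 ± 0.43, adjusted p = 0.00485). Coagulation factors F7 and F10, which meet on the extrinsic pathway, were both higher. F7 read 1.99, 0.743, 1.13, 1.48 and 0.654 CPM in Vehicle and 3.26, 4.61, 15.5 and 12.8 CPM in SHP2i (2.91 ± 0.58, adjusted p = 0.00414). F10 read 5.96, 5.28, 6.41, 2.46 and 2.97 CPM in Vehicle and 8.09, 11.3, 25.1 and 22.6 CPM in SHP2i (1.86 ± 0.49, adjusted p = 0.0205). C3, F7 and F10 were highest in SHP2i replicates 4 and 5.

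By the same rule the 15 that rose most were F7, Clca1, Car4, Reg1, F10, Slc7a2, Pwwp3b, Igf2os, Sel1l3, Rhbdl3, Cish, C3, Scube3, Lgi2 and Pak3. Car4, a membrane carbonic anhydrase, read 6.46, 4.22, 4.36, 3.69 and 2.66 CPM in Vehicle and 13, 21.1, 44.8 and 34.1 CPM in SHP2i (2.72 ± 0.47, adjusted p = 0.00136). The secreted lectin Reg1 read 3.05, 1.68, 2.7, 1.72 and 1.66 CPM in Vehicle and 8.13, 5.89, 16.1 and 16.4 CPM in SHP2i (2.43 ± 0.45, adjusted p = 0.00233) and the mucus-associated Clca1 rose by 2.79 ± 0.79 (adjusted p = 0.0298). Slc7a2, a transporter of arginine and lysine, read 15.3, 10.1, 10.6, 11.6 and 9.2 CPM in Vehicle and 38.1, 36.8, 47 and 42.4 CPM in SHP2i (1.86 ± 0.41, adjusted p = 0.00732). Cish, the SOCS-family gene that STAT5 induces, read 11, 11.7, 8.55, 10.3 and 8.94 CPM in Vehicle and 20.9, 24.7, 46.4 and 38.9 CPM in SHP2i (1.70 ± 0.33, adjusted p = 0.00383). Scube3, a secreted BMP and TGF-beta co-receptor, had the smallest p of the 15 (1.64 ± 0.18, adjusted p = 3.24e-05), at 7.29, 5.16, 4.19, 7.47 and 5.54 CPM in Vehicle and 16.4, 15.9, 21.2 and 20.4 CPM in SHP2i. Sel1l3 kept its call in 2, Clca1 in 4, F10 in 6 and Lgi2 in 8 of the 9 fits, and the other 11 in all.

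Few genes of cell division passed the test. Of 40 tested genes for the cell cycle and DNA replication, 1 was lower, E2f2 (-1.27 ± 0.32, adjusted p = 0.016), 0 were higher, and the median was 0.20. Most of the 40 had small positive differences, with 35 above 0 and 5 below, where 47% of all tested genes read below 0. The proliferation marker Mki67 read 222, 150.2, 191, 241 and 256 CPM in Vehicle and 325, 350, 382 and 267 CPM in SHP2i, above every Vehicle tumor in each SHP2i tumor, and its difference of 0.64 ± 0.24 did not pass (adjusted p = 0.0922). Ccnd2 fell by 1.25 (adjusted p = 0.0425) and kept its call in 0 of the 9 fits. Of 28 genes of the BCL2 family and apoptosis, 3 were lower in all 9 fits: the survival genes Mcl1 and Bcl2a1b (-0.52 ± 0.12 and -1.72 ± 0.24, adjusted p = 0.00896 and 0.000219) and the death gene Pmaip1 (-0.92 ± 0.22, adjusted p = 0.0143). Mcl1 read 304, 321, 321, 309 and 301 CPM in Vehicle and 194, 205, 242 and 227 CPM in SHP2i. Of 36 hypoxia and glycolysis genes 6 were higher and 1 lower (median 0.19), led by the oxygen-sensing hydroxylase Egln3 at 242, 215, 269, 228 and 283 CPM in Vehicle and 362, 470.4, 439 and 408 CPM in SHP2i (0.77 ± 0.11, adjusted p = 0.000395). Of 42 genes of the WNT, Notch and BMP pathways 6 were lower and 2 higher, with the WNT inhibitor Notum at -1.46 ± 0.34 and Bmp4 at -1.20 ± 0.21 (adjusted p = 0.01 and 0.00149). Among 17 genes of epithelial-mesenchymal transition 3 were lower, and the matrix protein Tgfbi read 236, 246, 236, 362 and 324 CPM in Vehicle and 87.1, 55.1, 140.2 and 124 CPM in SHP2i (-1.47 ± 0.29, adjusted p = 0.00431). Of the remaining lists, sterol and fatty acid synthesis had 2 of 33 higher, adipocyte markers 0 of 19 in edgeR's test (6 at an unadjusted p under 0.05, 1 in DESeq2), cytosolic ribosomal proteins 4 of 34 lower with all 34 reading below 0 (median -0.29), and the respiratory chain 1 of 36 lower. Lysosomal genes had 4 of 33 lower and 1 higher, and immune checkpoint genes 6 of 24 lower and 1 higher.

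SHP099 was also given on top of CLR457, and Combo against PI3Ki is a second reading of its effect in tumors that share no sample with the first, fitted in the same model. At an adjusted p under 0.05, 2719 genes were lower (17.8%) and 3037 higher (19.9%) in Combo than in PI3Ki. Of the 474 lower genes, 463 (97.7%) had the same sign there and 407 (85.9%) passed as lower, which is 15% of the 2719. Of the 98 higher genes, 84 (85.7%) had the same sign and 58 (59.2%) passed as higher, 1.9% of the 3037. Over all tested genes 48.5% read below 0 in that comparison. The median log2 fold change of the 474 was -1.68 without and -1.89 with CLR457 present, and that of the 98 was 1.38 and 1.10. The muscle list read higher in every PI3Ki tumor than in any tumor of the other groups, from 3.82 to 5.43 on the log2 scale over the Vehicle mean against -1.71 to 0.99 in Combo. With that level as a covariate, 0.5% of the lower and 0.0% of the higher genes passed in Combo against PI3Ki. The covariate almost coincides with membership of the PI3Ki group, so that CLR457 and muscle content cannot be told apart in that fit.

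**Figure D5:**
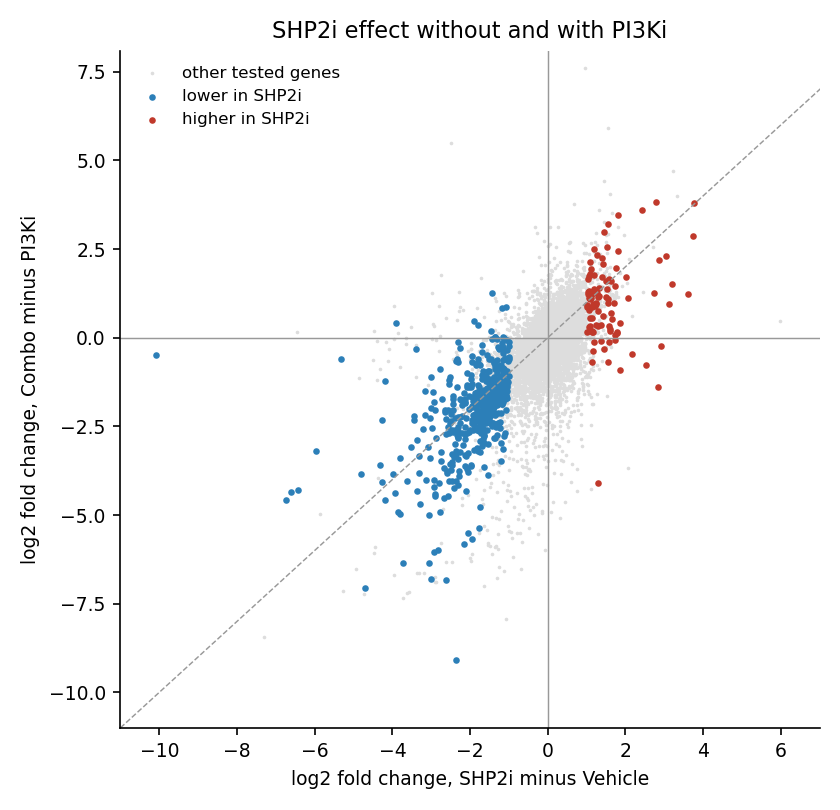
Each point is 1 of 15282 tested genes, with the log2 fold change of SHP2i minus Vehicle across and that of Combo minus PI3Ki upward; the dashed line marks equal values. Of the genes lower in SHP2i (blue, 474), 463 lie below 0 on the vertical axis, and of the genes higher in SHP2i (red, 98), 84 lie above 0.

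Macrophage genes were lower here too. Of the 22 markers 17 were lower and 0 higher in Combo than in PI3Ki (median -1.84), of the 25 Fc receptor and phagocytosis genes 21 (median -2.46), and of the 18 class II genes 13 (median -1.60). Fcgr1 fell by 4.15 and C1qc fell by 2.06 (adjusted p = 9e-07 and 8.83e-05). Of 17 B and plasma cell markers 1 was lower there (median -0.22). In Combo replicates 1 to 5 the B cell level was -3.57, -2.91, 0.46, 1.17 and -3.48 relative to the Vehicle mean. The macrophage level in the same tumors was -2.15, -1.46, -1.26, -2.32 and -3.07. A link between these levels was not tested. Dusp6 and Etv5 changed by -0.58 and -0.66 (adjusted p = 0.00172 and 0.000982), and Egfr, Igf2, Gdnf and Hp rose by 0.92, 2.97, 0.99 and 1.36 (adjusted p = 0.000112, 5.51e-06, 0.00752 and 0.00282).

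The difference between the 2 effects of SHP099 passed the test for 378 genes (2.47%), of which 25 are among the 474 and 9 among the 98. This count was the least steady of all, with 605 genes without Combo replicate 1, 149 without SHP2i replicate 4, 200 without PI3Ki replicate 2 and 0 with the muscle covariate. Il1b, S100a8 and S100a9 had lower effects with CLR457 present, by a difference of -2.27, -4.36 and -4.54 (adjusted p = 0.0173, 0.0412 and 0.0266). PI3Ki replicate 2 stood apart in neutrophil markers, with a mean level of 3.14 on the log2 scale over the Vehicle mean against 0.08 to 0.49 in the other PI3Ki tumors. Without it the differences were -2.21, -2.30 and -2.93, of which that of Il1b passed (adjusted p = 0.0355, 0.101 and 0.0562). F7 and F10 rose without CLR457 and read -0.24 and -0.91 with it (-3.16 and -2.77, adjusted p = 0.042 and 0.0399). The collagen genes Col6a1, Col6a2 and Col5a1 had opposite signs in the 2 comparisons, with -0.35, -0.54 and -0.56 in Combo against PI3Ki (adjusted p of the difference 0.0472, 0.0237 and 0.015). Of 38 collagens 15 were lower and 6 higher there. Pdgfa rose by 1.63 and Pdgfc by 0.95 when SHP099 was added to CLR457 (adjusted p = 1.82e-06 and 4.65e-05), which differed from the effects without it by 1.33 and 0.72 (adjusted p = 0.00521 and 0.0474). The receptors Pdgfrb and Pdgfra also rose in Combo against PI3Ki, by 0.73 and 1.09 (adjusted p = 0.00969 and 0.00113), and Pdgfb changed by -0.355 (adjusted p = 0.0158). The effects on these 3 genes did not differ from those without CLR457 at an adjusted p under 0.05.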

How the data were processed

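RNA was extracted from whole tumors with RNeasy Plus, poly(A) libraries were made with a directional kit, and paired reads were aligned by the authors with STAR to GRCm38 and counted per gene with qCount of QuasR; the labels also name hg19, and the strand setting and tool versions are not given in the sources used here. The deposited values are whole-number read counts per gene in 1 file per tumor, for 22792 Entrez gene identifiers, of which 22760 were matched to a symbol (the other 32 held 0.0193% of counts). Genes were kept by filterByExpr (minimum count 10, minimum total 15), scaled by TMM and fitted with edgeR 4.0.16 (glmQLFit and glmQLFTest, R 4.3.3) in 1 model of 4 groups over 18 tumors (14 residual degrees of freedom), with Benjamini-Hochberg adjustment over 15282 genes. A gene was called changed at an adjusted p under 0.05 with an absolute log2 fold change over 1, and a list member higher or lower at the adjusted p alone. Combo minus PI3Ki and the difference of both effects were contrasts of the same model. The script was tested on simulated counts.

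The groups compared, the 46 gene lists (1107 genes tested) and the rules were chosen with earlier results of these data known. Genes named are the 15 largest changes each way without overlap and with a mean log2 CPM over 1, up to 6 list members with the smallest passing p and up to 4 of the most abundant in each list, genes that the study follows, defining markers of cell types, and those said in place to be named after their values were seen; the values of a few of them are not reported here. CPM values use TMM-scaled totals, and the list levels use log2 CPM with a prior count of 2.

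Alternatives were DESeq2 1.42.0, RLE size factors, library totals alone, no filter and a stricter filter on low counts, the 9 tumors alone, a replicate block, covariates for B and plasma cell and for muscle content, no fold limit, and each tumor left out in turn.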

Additional observations from a re-analysis of the deposited data

Results flagged for a closer look

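In 390 groups of log2 CPM values (prior count of 2) for the genes named, 23 had a highest or lowest tumor set apart from the rest by Dixon's criterion. Chance flags about 1 in 20. The values in brackets are CPM. Vehicle replicate 1 was the tumor set apart for Glycam1 (1.38 CPM), Cr2 (1.99 CPM), C1qb (346 CPM), C1qc (346 CPM), Ccr2 (91.1 CPM), H2-Ab1 (459 CPM), H2-Eb1 (468 CPM) and H2-Eb2 (6.6 CPM), always as the lowest of its group, and for Vegfa (148 CPM) as the highest. The other Vehicle tumors were Vehicle replicate 5 for Cd209a (2.18 CPM, lowest) and Vehicle replicate 2 for Rps6kb1 (56.9 CPM, lowest).

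Among SHP2i tumors, replicate 4 was lowest for Epcam (3.17 CPM), Krt14 (2.21 CPM), Krt19 (16.9 CPM) and Cd79a (0.666 CPM), and replicate 5 for Krt8 (405 CPM). Replicate 3 was lowest for Epha4 (1.73 CPM), Gdnf (5.93 CPM) and Klrb1c (0.456 CPM) and highest for Ror1 (20.9 CPM). Replicate 2 was lowest for Pdgfra (209 CPM) and Notch3 (23 CPM) and highest for Glycam1 (0.121 CPM), which the other SHP2i tumors lacked.

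For 21 named genes the effect of SHP099 with CLR457 present differed from that without it in edgeR's test of the difference, and 10 of them passed when PI3Ki replicate 2 was left out. With each of the 18 tumors left out in turn, Cx3cr1, Il1b, Pdgfa, Col5a1 and Tnnt3 passed in every fit. On the log2 scale the effect with CLR457 was lower for the myeloid genes Fcrls by -3.30, Siglech by -3.79, S100a8 by -4.36, S100a9 by -4.54 and Il1b by -2.27, for the plasma proteases F7 by -3.16 and F10 by -2.77, and for the muscle genes Tnni2 by -3.44 and Tnnt3 by -3.60. It was also lower for Dusp5 by -1.26, Ddit4 by -0.95, Sfrp1 by -0.94 and the collagen genes Col6a1 by -0.89, Col6a2 by -1.25 and Col5a1 by -1.09. The effect with CLR457 was higher for Cx3cr1 by 0.69, Myc by 0.63, Pdgfa by 1.33, Pdgfc by 0.72, Col4a5 by 1.42 and Igf2os by 1.66.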

How the results depend on the processing

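The 98 higher and 474 lower genes were all called again by DESeq2 and with RLE size factors, and no setting gave a called gene the opposite sign. Of 3505 values of named genes under an alternative, 3071 kept their side of the threshold, 396 lost it and 38 gained it. Of the values that passed in the main fit or the alternative, 0 changed sign. Sign changes of values that passed in neither were not counted. Where the 9 tumors were fitted alone, 181 genes were higher, and 121 list members were higher and 225 lower (59 and 121 in the model of 18 tumors). With the B and plasma cell covariate 44 genes were higher and 207 lower, 13 list members were higher and 53 lower, and the 2 effects of SHP099 differed for 163 genes. With the muscle covariate 201 genes were higher, the 2 effects differed for 0 genes, and the shares of lower and higher genes that passed in Combo against PI3Ki were 0.5% and 0.0%. DESeq2 gave 755 genes whose 2 effects differed (378 in edgeR). The replicate numbers did not pair the tumors (correlations of same-numbered deviations from -0.05 to 0.24), and with the replicate block 200 genes had effects that differed, 78 were higher and 504 lower. Without the fold limit 772 were higher and 1000 lower. The causes of these shifts were not tested.

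With each tumor left out in turn, 55 to 99 genes were higher and 354 to 459 lower, 22 to 44 list members were higher, and 149 to 605 genes had effects that differed. The count of higher genes fell most without Vehicle replicate 2 (55) and without SHP2i replicate 5 (57). The count of genes with differing effects moved by over 1.5 times without Vehicle replicates 2 (227), 3 (249), 4 (182) or 5 (189), SHP2i replicates 2 (207), 4 (149) or 5 (205), PI3Ki replicate 2 (200) and Combo replicates 1 (605), 3 (591), 4 (205) or 5 (229). Glycam1 in SHP2i rests on 3 reads in replicate 2 and 0 in the others.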
